A study of Homo sapiens with 26 samples.

Results

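The 42 genes described here drive or carry out entry into mitosis and cell division, from cyclins and mitotic kinases to spindle motors and the contractile ring. They were chosen by name from a list of mitotic genes, and all 42 matched 1 row each of the 57773 genes counted. RNA sequencing measured them in TF-1, an established human erythroleukemia line that needs the cytokine GM-CSF to grow. The knockout (KO) libraries come from 2 TET2 -/- clones, F4 and A12, and the wild-type (WT) libraries from 2 clones that keep TET2, A7 and C4. TET2 encodes an enzyme that oxidises methylated cytosine in DNA. Treated cells received 200 nM 5-azacytidine (Aza), a cytidine analogue that traps DNA methyltransferases, on 3 consecutive days, and control cells received the solvent DMSO. Cells were collected before treatment, 72 h after the first dose and 264 h after it.

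The KO groups held 2 libraries with Aza at 72 h, 3 with DMSO at 72 h, 2 with Aza at 264 h, 4 with DMSO at 264 h and 2 before treatment. Another 2 KO libraries of batch 2 carried both pre-treatment and DMSO labels and formed a group of their own. Each of the 5 WT groups held 2 libraries, 1 per clone. Batch 1 had 20 libraries and batch 2 had 6, all of KO clones without Aza. The batch 1 library of clone F4 with DMSO at 72 h is labelled as failing quality control and was left out, so 25 of 26 libraries were used. For clone F4 at 72 h the DMSO value therefore comes from batch 2 and the Aza value from batch 1. Each genotype is represented by 2 clones of a single line, so a genotype difference and a difference between clones cannot be told apart beyond the spread of 2 clones.

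Before a cell divides, cyclin B with the kinase CDK1 switches on, helped by CDC25 phosphatases and by the Polo and Aurora kinases. The spindle checkpoint holds the anaphase-promoting complex, a ubiquitin ligase, inactive until every kinetochore is attached. Its activator CDC20 then triggers destruction of securin and cyclin B, the chromosomes part, and a contractile ring divides the cell. Most of these genes are transcribed late in the cycle under the MuvB complex with B-MYB (MYBL2) and FOXM1, which act through a short promoter element called CHR. Another short element of such promoters is called CCAAT. In bulk RNA, fewer cells in mitosis and less of such RNA per cell cannot be told apart.

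Library totals lay between 24992192 and 40187322 counts, with a median of 27477937, and single members had 188 to 30650 counts in a library. Of 8 markers listed for TF-1 cells, 7 were counted in all 25 libraries (GATA1, TAL1, CD34, KIT, CSF2RB, EPOR and GFI1B), and CSF2RA was at 0 in all of them. Whether this 0 comes from absent RNA or from the counting was not tested. Among markers of other cell types, MS4A1 and KRT5 were at 0 in all 25 libraries, and CD3D ranged from 0.529 to 61.4 CPM (counts scaled to library size). Before treatment TET2 itself averaged 36.2 ± 5.63 CPM in KO clones, against 28.9 ± 0.117 CPM in WT clones (SD, n = 2 each), a count over all exons that does not check the deletion. The pre-treatment libraries of clones A7 and C4 did not resemble the later libraries of the same label: their deviations from the group mean correlated at -0.523 to -0.478 across 3000 genes, against 0.451 to 0.516 among the later WT libraries. In a group of 2 libraries the deviations are equal and opposite. Each pre-treatment library thus resembled the later libraries of the other WT label. Whether the labels were exchanged was not tested, and the main fits keep them. For results that use the WT pre-treatment libraries, the larger shifts of call counts without them or with both labels exchanged are also given.

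Per unit of transcript length, the members were among the more abundant RNAs of these cells. CDC20 stood highest at 1008 ± 148 TPM (a level scaled for length and depth; SD, n = 25, range 683.5 to 1279). It was followed by TPX2, a spindle assembly factor, at 466 ± 92.0 TPM. BUB3, a checkpoint protein that binds kinetochores, came next at 367 ± 22.2 TPM, then TOP2A, the topoisomerase that untangles chromosomes, at 326 ± 36.7 TPM and CCNB1 (cyclin B1) at 279 ± 30.4 TPM. The ranges of BUB3, TOP2A and CCNB1 over the libraries overlapped, while those of CDC20 and TPX2 met only at their ends, with a lowest CDC20 of 683.5 TPM and a highest TPX2 of 706.5 TPM. The lowest were CDC25C, a phosphatase that activates CDK1, at 10.5 ± 1.69 TPM, and CDCA3, a mitotic F-box-like protein, at 24.0 ± 5.52 TPM. Even CDC25C had a mean above that of 78.1% of the detected genes.

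Levels of the members varied little across libraries. The SD of log2 CPM over the 25 libraries had a median of 0.16 over the 42 members, against 0.29 over the 18391 genes tested. The sets were not matched for level, and the members were among the more abundant genes. The lower SD is thus not shown to be a trait of mitotic genes. By that SD, FOXM1 (0.35), ECT2 (0.34) and CENPE, a kinetochore motor (0.34), varied most, and BUB3 (0.09) varied least. By the ratio of the highest to the lowest TPM, CENPE (2.63) came first, before PLK4, the kinase that duplicates centrioles (2.42), and FOXM1 (2.38), and BUB3 (1.22) came last. CENPE, PLK4, FOXM1 and ECT2 were all called between the KO clones, as described further down.

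Promoter letters were read for the 35 members that have an entry in the RefSeq promoter table (GRCh38.p14, 250 bases before to 50 after the gene start). The CHR letters, TTTGAA or TTCGAA on either strand, occurred in 24 of these 35 windows (68.6%), against 16.4% of all 35116 promoters of the same length. CCAAT on either strand occurred in 27 (77.1%, against 34.6%), and both occurred in 21, against 6.38% of all promoters. The letters GCGGGAA, which resemble an E2F site, were in 4 windows (11.4%, against 6.55%). These are matches of letters and not tested binding sites. Windows are printed for 3 genes that were called higher with Aza and 3 that were called lower, to set their elements side by side. Each runs over the 250 bases before the start, with CHR and CCAAT letters of either strand in capitals.

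MYBL2, chr20:43666864-43667113, plus strand: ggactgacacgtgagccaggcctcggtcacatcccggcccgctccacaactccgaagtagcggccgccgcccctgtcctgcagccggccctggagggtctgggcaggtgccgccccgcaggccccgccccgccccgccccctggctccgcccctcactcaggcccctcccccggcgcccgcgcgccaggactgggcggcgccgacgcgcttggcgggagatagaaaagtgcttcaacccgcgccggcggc

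CDC25B, chr20:3786701-3786950, plus strand: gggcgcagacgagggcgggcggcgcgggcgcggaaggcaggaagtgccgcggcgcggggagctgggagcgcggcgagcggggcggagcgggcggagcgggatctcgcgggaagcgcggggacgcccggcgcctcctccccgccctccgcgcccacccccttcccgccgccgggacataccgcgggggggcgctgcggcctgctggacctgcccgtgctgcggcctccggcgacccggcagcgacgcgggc

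CDC20, chr1:43358731-43358980, plus strand: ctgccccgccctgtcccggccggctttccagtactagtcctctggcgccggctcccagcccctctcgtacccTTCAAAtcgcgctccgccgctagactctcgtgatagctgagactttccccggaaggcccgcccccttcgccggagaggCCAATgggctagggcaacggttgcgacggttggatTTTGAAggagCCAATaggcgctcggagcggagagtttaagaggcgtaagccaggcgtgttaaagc

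ANLN, chr7:36389612-36389861, plus strand: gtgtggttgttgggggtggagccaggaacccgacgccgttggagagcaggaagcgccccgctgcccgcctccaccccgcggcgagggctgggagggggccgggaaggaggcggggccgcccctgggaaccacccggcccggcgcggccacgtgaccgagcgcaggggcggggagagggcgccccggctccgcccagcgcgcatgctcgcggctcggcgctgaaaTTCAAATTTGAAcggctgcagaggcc

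KIF11, chr10:92592880-92593129, plus strand: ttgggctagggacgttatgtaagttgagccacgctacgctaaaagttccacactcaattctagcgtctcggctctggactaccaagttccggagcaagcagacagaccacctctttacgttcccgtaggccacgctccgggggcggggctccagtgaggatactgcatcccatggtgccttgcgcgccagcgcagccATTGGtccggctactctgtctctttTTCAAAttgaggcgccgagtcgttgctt

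KIF4A, chrX:70289854-70290103, plus strand: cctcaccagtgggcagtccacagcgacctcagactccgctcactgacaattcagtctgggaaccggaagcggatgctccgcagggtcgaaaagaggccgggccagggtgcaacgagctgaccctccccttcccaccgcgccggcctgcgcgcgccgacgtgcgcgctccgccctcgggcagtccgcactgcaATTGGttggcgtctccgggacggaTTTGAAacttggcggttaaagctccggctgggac

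The windows of MYBL2 and CDC25B held neither CHR nor CCAAT letters, and that of CDC25B held GCGGGAA at 2 places, -145 and -91, counted from the gene start. The window of CDC20 held CHR letters at -178 and -65 and CCAAT at -100 and -55. KIF11 and KIF4A each had CHR letters close to the start, at -28 and -34, with CCAAT at -53 and -58. ANLN had 2 adjoining CHR matches at -26 and -20 and no CCAAT. CENPE, another gene called lower with Aza, held none of the 3 motifs. Members with both elements were called in both directions, CDC20 higher and KIF11 and KIF4A lower.

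Aza at 72 h moved a minority of the mitotic genes, and in both directions. In KO cells 13 of 42 members were called (adjusted p under 0.05 by edgeR's quasi-likelihood test), 11 higher and 2 lower, against 20.1% of all 18391 genes tested (11.6% higher, 8.47% lower). In WT cells 11 of 42 were called, 4 higher and 7 lower, against 18.3% of all genes (9.26% higher, 9.04% lower). The median log2 change of the members was 0.13 in KO and 0.03 in WT, against 0.01 and 0.00 over all genes tested. With library totals in place of TMM scaling, the KO calls split into 6 higher and 7 lower, so the balance of directions in KO depends on the scaling. The KO count was 5 without clone F4 and 3 without A12, where 8.99% and 2.19% of all genes were called. The WT count was 3 without A7 and 6 without C4, where 10.0% and 10.6% of all genes were called. In KO it was 22 without the WT pre-treatment libraries and 20 with their labels exchanged, where 26.1% and 24.9% of all genes were called. In WT it was 14 and 13 with these settings, where 24.0% and 22.8% of all genes were called.

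**Figure D1:**
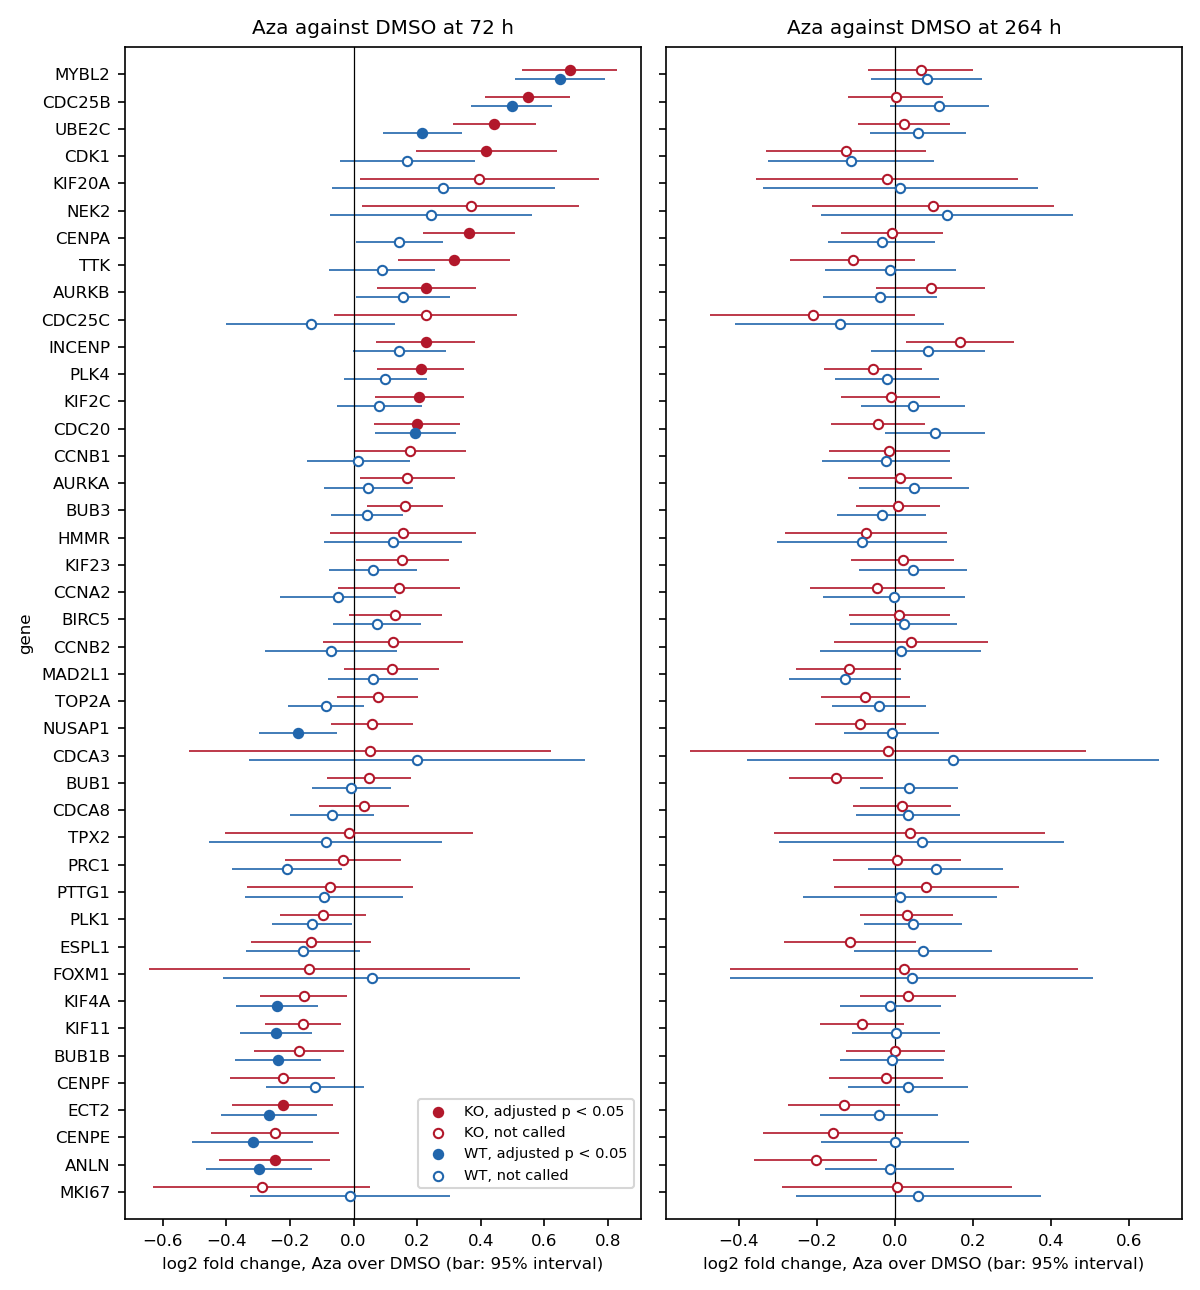
Log2 fold change of each of the 42 mitotic genes, Aza over DMSO, at 72 h (left) and 264 h (right), ordered by the KO value at 72 h. Bars are 95% intervals of the edgeR fit, and filled points have an adjusted p under 0.05. MYBL2 (0.68 in KO, 0.65 in WT) and CDC25B (0.55 and 0.50) lie highest at 72 h, and no point is filled at 264 h.

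The largest rises were in MYBL2 and CDC25B, in both genotypes. MYBL2, the B-MYB transcription factor of the late cell cycle, stood at 211 CPM (F4) and 180 CPM (A12) in Aza-treated KO cells, against 150 CPM (F4, batch 2), 114 CPM (A12) and 129 CPM (A12, batch 2) with DMSO. In WT cells it stood at 183 CPM (A7) and 211 CPM (C4) with Aza, against 116 CPM (A7) and 135 CPM (C4) with DMSO. Every Aza library lay above every DMSO library of its genotype. Groups without overlap were common at 72 h. Of all genes tested, 18.2% in KO and 26.6% in WT lay above in this way. In either direction, 35.2% of all genes in KO and 53.2% in WT did not overlap. The fitted log2 change was 0.68 in KO (SE 0.0729, adjusted p = 2.79e-07) and 0.65 in WT (SE 0.0689, adjusted p = 2.25e-07), with 95% intervals of 0.53 to 0.83 and 0.51 to 0.79. MYBL2 was called in all 14 alternatives in both genotypes.

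CDC25B, the phosphatase that starts CDK1 activation at the G2/M border, stood at 88.8 CPM (F4) and 87.8 CPM (A12) in Aza-treated KO cells, against 74.3 CPM (F4, batch 2), 58.1 CPM (A12) and 67.9 CPM (A12, batch 2) with DMSO. In WT cells it stood at 83.0 CPM (A7) and 84.4 CPM (C4) with Aza, against 57.7 CPM (A7) and 61.0 CPM (C4) with DMSO. Here too the groups did not overlap. The log2 change was 0.55 in KO (SE 0.0649, adjusted p = 1.13e-06) and 0.50 in WT (SE 0.0617, adjusted p = 2.32e-06), or 1.46-fold and 1.41-fold. CDC25B was called in every alternative in WT, and in every one in KO but that without clone A12, which leaves a comparison of F4 libraries across batches. Its relative CDC25C was not called in either genotype (0.23 in KO and -0.14 in WT, adjusted p = 0.277 and 0.535). CDC25C overlaps FAM53C, which had 50149 counts in all against 7741 for CDC25C, and the counting set no strand.

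Of the 5 genes grouped with the anaphase-promoting complex and separase, UBE2C and CDC20 rose in both genotypes. UBE2C, the ubiquitin-conjugating enzyme of that complex, stood at 156 CPM (F4) and 149 CPM (A12) in Aza-treated KO cells, against 152 CPM (F4, batch 2), 111 CPM (A12) and 148 CPM (A12, batch 2) with DMSO. The KO groups overlapped, because both batch 2 DMSO libraries were about as high as the Aza libraries. At 264 h, too, the batch 2 DMSO libraries were higher (162 and 144 CPM) than the batch 1 DMSO libraries (115 and 111 CPM), a batch difference that the fit takes out. The log2 change in KO was 0.44 (SE 0.0632, adjusted p = 1.54e-05), and 0.43 in batch 1 alone (adjusted p = 0.000746). The KO call was lost without clone A12 and with the library that failed quality control, and over the 14 alternatives the log2 change ran from 0.05 to 0.51, with adjusted p values up to 0.894. In WT cells UBE2C stood at 125 CPM (A7) and 143 CPM (C4) with Aza, against 111 CPM (A7) and 120 CPM (C4) with DMSO. These groups did not overlap, and the log2 change was 0.22 (SE 0.0599, adjusted p = 0.0125). The WT call was lost in 5 of 14 alternatives, among them those without A7 and without C4.

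CDC20 stood at 842 CPM (F4) and 700 CPM (A12) in Aza-treated KO cells, against 869 CPM (F4, batch 2), 610 CPM (A12) and 704 CPM (A12, batch 2) with DMSO. In WT cells it stood at 735 CPM (A7) and 780 CPM (C4) with Aza, against 629 CPM (A7) and 695 CPM (C4) with DMSO. The groups overlapped in KO and not in WT. The log2 changes were 0.20 in KO (SE 0.0656, adjusted p = 0.0321) and 0.19 in WT (SE 0.0618, adjusted p = 0.0286), and the KO call was made in 6 of 14 alternatives. It was lost without either KO clone. PTTG1 (securin), ESPL1 (separase) and CDCA3 were not called in either genotype, with log2 changes of -0.16 to 0.20.

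Another 7 members rose in KO and were not called in WT. The largest of these changes was in CDK1, the catalytic partner of cyclin B, at 195 CPM (F4) and 187 CPM (A12) with Aza, against 126 CPM (F4, batch 2), 151 CPM (A12) and 115 CPM (A12, batch 2) with DMSO. These groups did not overlap, and the log2 change was 0.42 (SE 0.106, adjusted p = 0.00829). CENPA, the histone H3 variant that marks centromeres, rose by 0.36 (SE 0.0697, adjusted p = 0.000503), at 69.6 and 76.9 CPM with Aza against 66.6, 59.9 and 67.9 CPM with DMSO. TTK, the kinase that recruits the other checkpoint proteins to kinetochores, rose by 0.32 (SE 0.0850, adjusted p = 0.00914), at 174 and 155 CPM with Aza against 92.0, 133 and 93.3 CPM with DMSO. For both genes every Aza library exceeded every DMSO library. Neither CDK1 nor TTK was called in batch 1 alone. CENPA was not called without clone A12, with the compared groups alone or with the library that failed quality control, and its log2 change ran from 0.08 to 0.37 over the 14 alternatives (adjusted p up to 0.746). AURKB and INCENP, the kinase and the scaffold of the chromosomal passenger complex, PLK4 and the microtubule-depolymerising motor KIF2C changed by 0.21 to 0.23 and had adjusted p values of 0.0251 to 0.0352. AURKB and KIF2C were called in 6 of 14 alternatives, and INCENP and PLK4 in 5. All of these calls were lost without either KO clone and with library totals. In WT the log2 changes of these 7 genes were all positive, from 0.08 to 0.17.

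In all, 7 members fell in WT and 2 of these also in KO. By list, the WT falls were 2 of 5 cytokinesis genes, 3 of 6 spindle motor and spindle genes, 1 of 5 checkpoint genes and 1 of 3 centromere genes. ANLN (anillin, a scaffold of the contractile ring) and ECT2 (the exchange factor that activates RhoA at the division plane) fell in both genotypes, and were the 2 of 5 cytokinesis genes called. In WT cells ANLN stood at 73.2 CPM (A7) and 79.2 CPM (C4) with Aza, against 87.4 CPM (A7) and 99.8 CPM (C4) with DMSO. ECT2 stood at 141 CPM (A7) and 147 CPM (C4) with Aza, against 180 CPM (A7) and 165 CPM (C4) with DMSO. The WT groups did not overlap, and the log2 changes were -0.30 for ANLN (SE 0.0805, adjusted p = 0.0109) and -0.27 for ECT2 (SE 0.0729, adjusted p = 0.0117). Both WT calls were made in 11 of 14 alternatives. That of ANLN was lost without C4 and that of ECT2 without A7.

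In KO cells ANLN stood at 82.9 CPM (F4) and 82.0 CPM (A12) with Aza, against 70.4 CPM (F4, batch 2), 106 CPM (A12) and 79.2 CPM (A12, batch 2) with DMSO. ECT2 stood at 142 CPM (F4) and 99.6 CPM (A12) with Aza, against 108 CPM (F4, batch 2), 124 CPM (A12) and 87.0 CPM (A12, batch 2) with DMSO. The KO groups overlapped for both genes, and only the batch 1 DMSO library of A12 lay above the Aza library of its clone. The log2 changes were -0.25 for ANLN (SE 0.0846, adjusted p = 0.0392) and -0.22 for ECT2 (SE 0.0775, adjusted p = 0.0429), and -0.33 and -0.34 in batch 1 alone (adjusted p = 0.0440 and 0.00513). These KO calls thus rest on the fitted batch term and on clone A12 in batch 1.

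Another 5 members fell in WT and were not called in KO. CENPE had the largest of these changes, at 78.3 CPM (A7) and 90.6 CPM (C4) with Aza, against 104 CPM (A7) and 106 CPM (C4) with DMSO (log2 change -0.32, SE 0.0918, adjusted p = 0.0178). KIF11, the motor that pushes spindle poles apart, fell by 0.24 on the log2 scale (SE 0.0545, adjusted p = 0.00223), at 224 and 227 CPM with Aza against 265 and 269 CPM with DMSO. KIF4A, a chromosome-arm motor, fell by 0.24 (SE 0.0630, adjusted p = 0.0085), at 75.4 and 83.6 CPM with Aza against 92.6 and 95.1 CPM with DMSO. The groups did not overlap for any of these 3 genes, with Aza below DMSO as for 26.6% of all genes in WT. BUB1B, the checkpoint protein BUBR1, fell by 0.24 and NUSAP1, which bundles spindle microtubules, fell by 0.18 (adjusted p = 0.0114 and 0.0402). Of 14 alternatives, 8 called CENPE, 8 NUSAP1, 11 KIF11, 12 KIF4A and 12 BUB1B. The CENPE call was lost in batch 1 alone, and each of these calls was lost without clone A7. In KO the log2 changes of these 5 genes ran from -0.25 to 0.06.

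**Figure D2:**
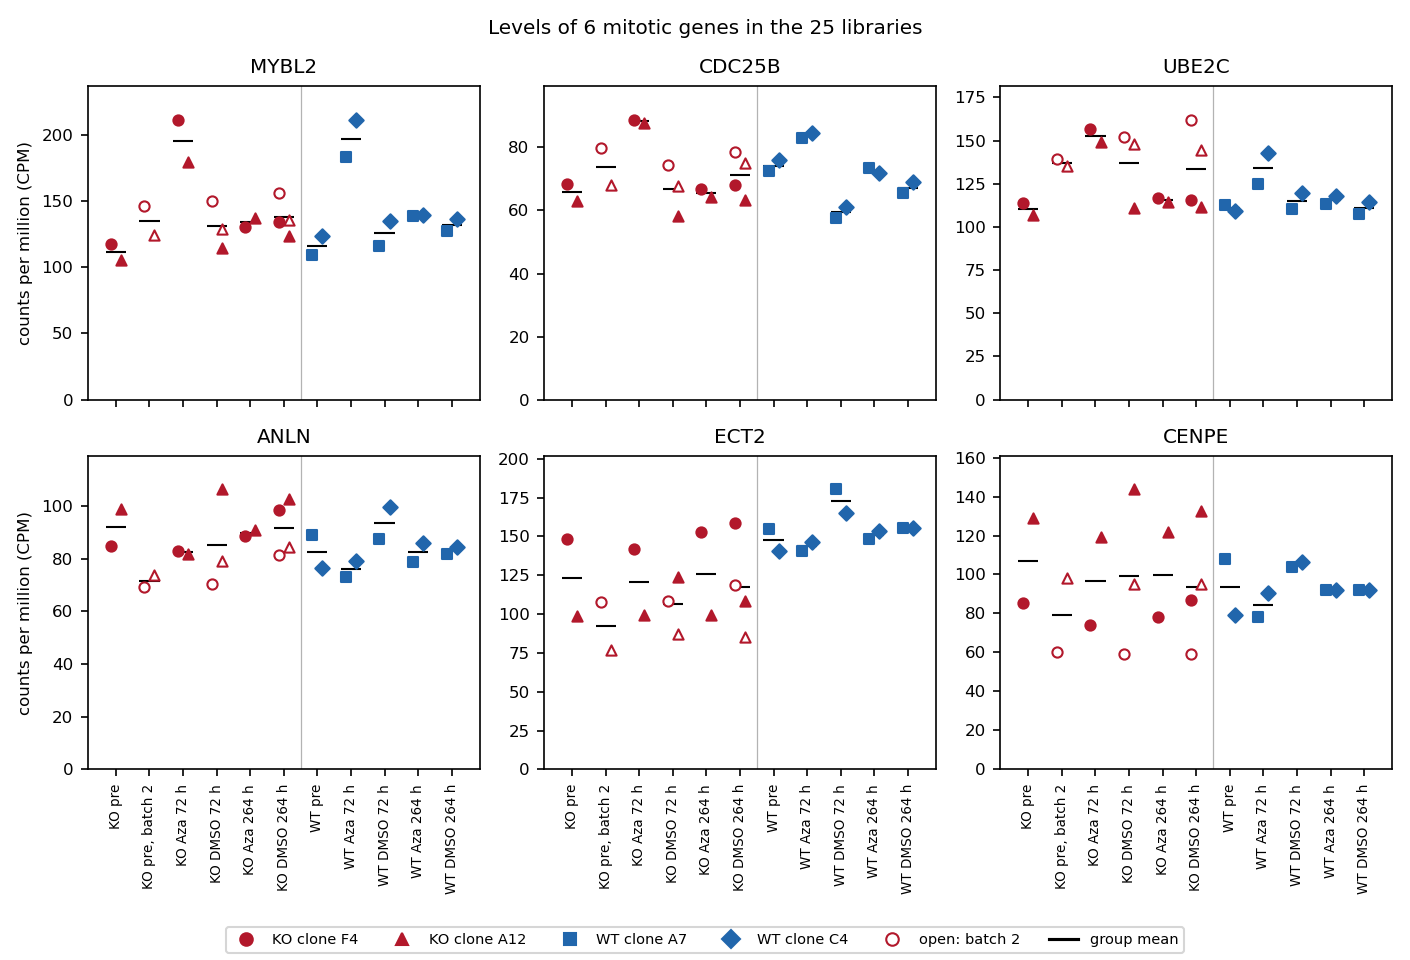
CPM of 6 mitotic genes in each of the 25 libraries, by group, with KO groups left of WT groups and times in order. Point shape gives the clone, open points are batch 2, and lines are group means. MYBL2 and CDC25B with Aza at 72 h stand above the other groups of each genotype, UBE2C is high in batch 2, and CENPE and ECT2 differ between the KO clones.

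Several genes that are often read as markers of proliferation were not called at 72 h in either genotype. In the values that follow, KO libraries are in the order F4 and A12 with Aza, then F4 of batch 2, A12 and A12 of batch 2 with DMSO, and WT libraries are in the order A7 and C4. CCNB1 stood at 270 and 254 CPM in Aza-treated KO cells against 233, 218 and 223 CPM with DMSO, and at 243 and 280 CPM in Aza-treated WT cells against 242 and 275 CPM with DMSO. Its log2 changes were 0.18 and 0.02 (adjusted p = 0.144 and 0.931). MKI67, the Ki-67 antigen of dividing cells, stood at 396 and 378 CPM with Aza against 465, 373 and 415 CPM with DMSO in KO, and at 394 and 475 CPM with Aza against 401 and 476 CPM with DMSO in WT. Its groups overlapped in both genotypes, with log2 changes of -0.29 and -0.01 (adjusted p = 0.236 and 0.973).

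PLK1, the Polo kinase of mitotic entry, stood at 190 and 179 CPM with Aza against 235, 184 and 223 CPM with DMSO in KO, and at 183 and 190 CPM with Aza against 191 and 218 CPM with DMSO in WT (log2 changes -0.10 and -0.13, adjusted p = 0.336 and 0.150). TOP2A stood at 820 and 754 CPM with Aza against 568, 747 and 603 CPM with DMSO in KO, and at 725 and 699 CPM with Aza against 783 and 730 CPM with DMSO in WT (0.08 and -0.09, adjusted p = 0.435 and 0.348). For TOP2A the 2 lowest DMSO values in KO are the batch 2 libraries. The kinase AURKA stood at 127 and 136 CPM with Aza against 108, 121 and 115 CPM with DMSO in KO, and at 121 and 128 CPM with Aza against 115 and 126 CPM with DMSO in WT (0.17 and 0.05, adjusted p = 0.101 and 0.713).

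BUB3 stood at 417 and 419 CPM with Aza against 348, 382 and 373 CPM with DMSO in KO, and at 427 and 395 CPM with Aza against 410 and 388 CPM with DMSO in WT. Its groups did not overlap in KO, where the log2 difference of 0.16 just missed the threshold (adjusted p = 0.0520), and overlapped in WT (0.04, adjusted p = 0.664). FOXM1, the other transcription factor of the list, stood at 73.7 and 59.5 CPM with Aza against 93.9, 59.4 and 71.6 CPM with DMSO in KO, and at 72.5 and 118 CPM with Aza against 69.1 and 115 CPM with DMSO in WT. Its values separate by clone, and the log2 differences of -0.14 and 0.06 had SEs of 0.230 and 0.213 (adjusted p = 0.736 and 0.900).

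**Figure D3:**
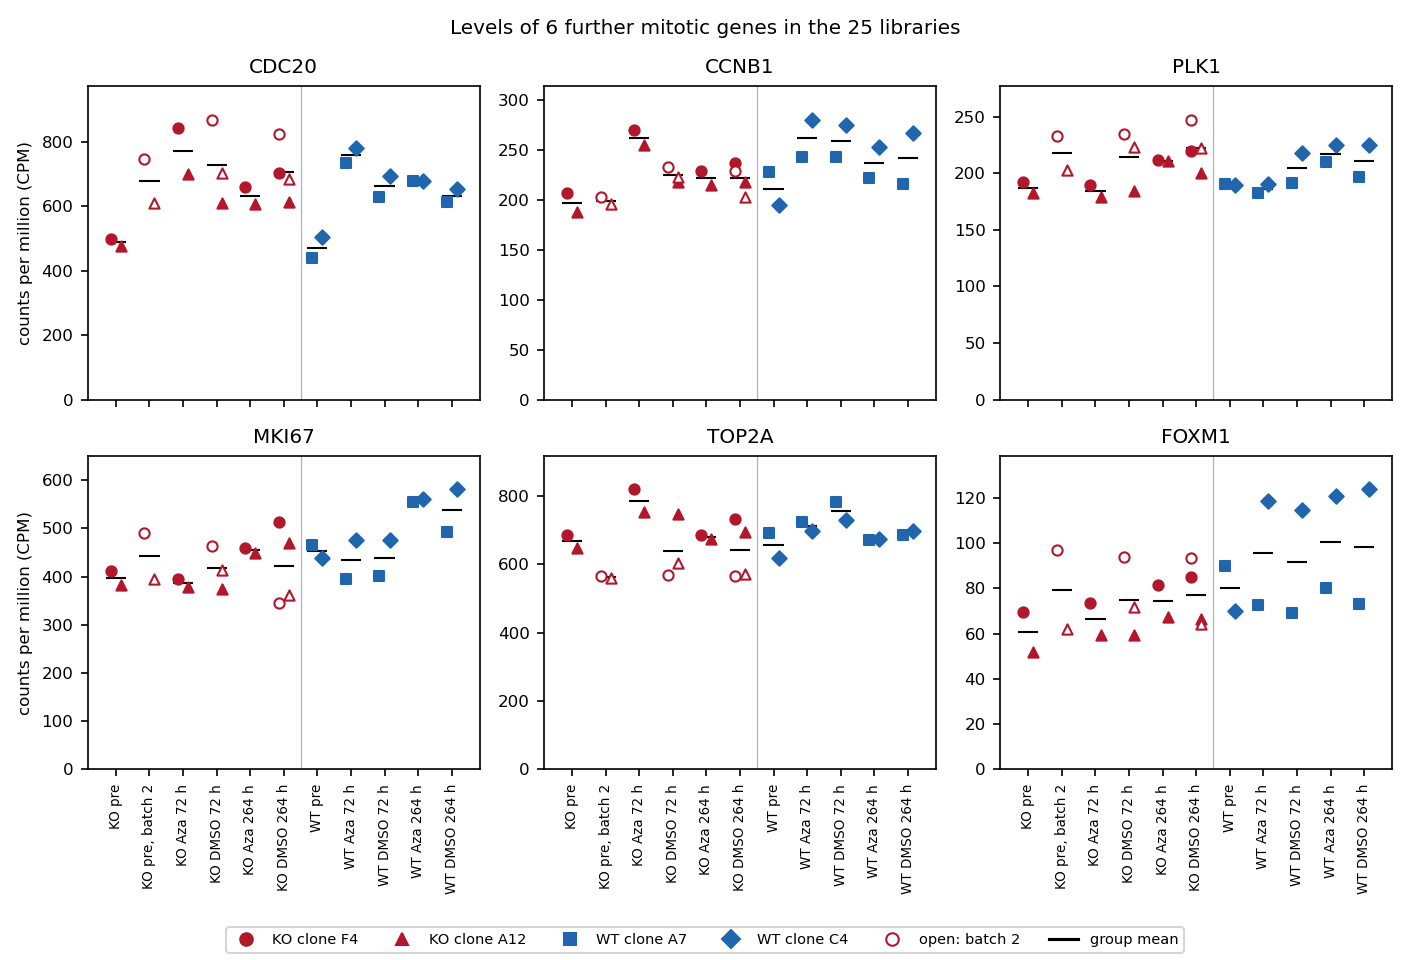
CPM of CDC20, CCNB1, PLK1, MKI67, TOP2A and FOXM1 in each of the 25 libraries, drawn as in the plot of MYBL2 and CDC25B. CDC20 is lowest in the batch 1 pre-treatment libraries of both genotypes (438 to 504 CPM), TOP2A is low in batch 2, and FOXM1 separates clone C4 from clone A7 after the pre-treatment sample.

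The calls in KO and WT differed, but the difference between genotypes was not called for any member. Of the members, 4 were called higher in both genotypes, 2 lower in both, 7 higher in KO alone and 5 lower in WT alone, and none was called in opposite directions. Tested directly, the Aza effect in KO minus that in WT at 72 h ranged from -0.28 to 0.36 and gave 0 calls (smallest adjusted p = 1.00, background 0.0%). At an unadjusted p under 0.05 edgeR counted 3 members, and DESeq2 called 0. The 95% intervals of these differences reached from -0.93 to 0.75 over the 42 genes, with a median half-width of 0.21. The intervals are not adjusted for the number of genes tested, so differences larger than that half-width could also go uncalled.

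The summed level of the 42 genes is given as a description without a test. In KO the members summed to 7793 ± 147 CPM with Aza (n = 2), against 6995 ± 223 CPM with DMSO at 72 h (n = 3). In WT they summed to 7812 ± 180 CPM with Aza, against 7766 ± 76.6 CPM with DMSO (n = 2 each). The Aza sums of both genotypes were close, and the KO sum with DMSO lay below the WT sum with DMSO. The KO libraries with DMSO at 72 h summed to 7241 CPM (A12), 6936 CPM (F4, batch 2) and 6808 CPM (A12, batch 2). At 264 h they summed to 7457 and 7140 CPM in batch 1, against 6950 and 6621 CPM in batch 2. All WT and all Aza libraries are of batch 1, so both the KO rise and the gap to WT mix in a batch difference. Within clones, the median log2 difference of the members at 72 h was 0.20 in F4 (against batch 2 DMSO), 0.07 in A12 (within batch 1), 0.01 in A7 and 0.02 in C4, so the largest shift is the one that crosses batches. The part of the batch in it was not tested.

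**Figure D4:**
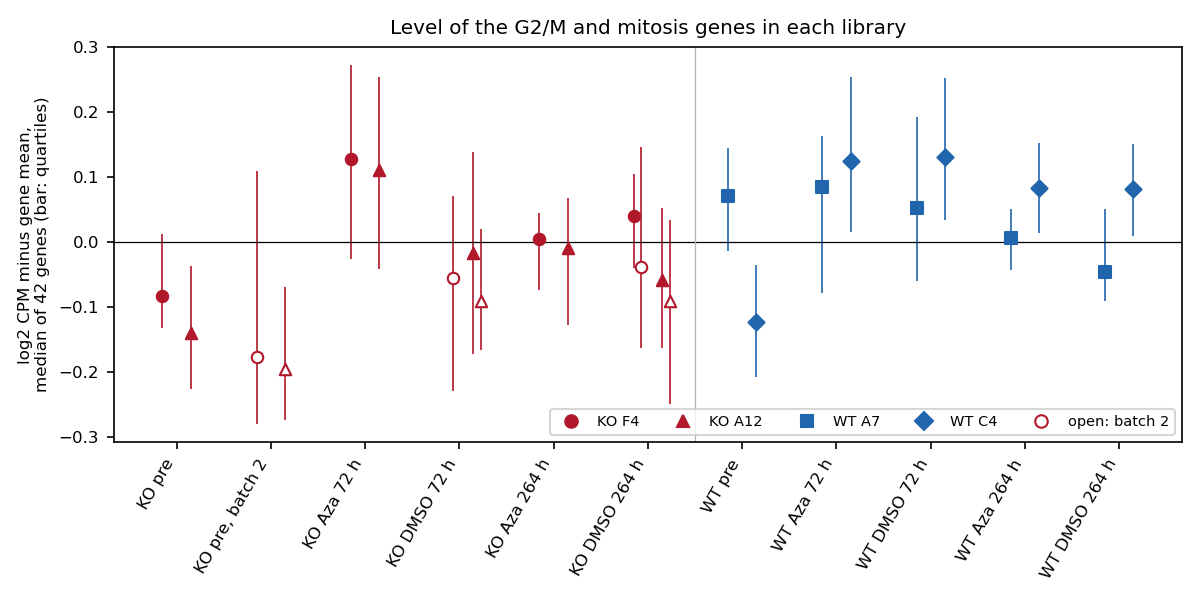
Median over the 42 mitotic genes of log2 CPM minus the gene's mean over the 25 libraries, one point per library, with quartiles as bars. Shape gives the clone and open points are batch 2. The KO libraries before treatment lie low (-0.19 to -0.08), both KO Aza 72 h libraries lie at 0.11 to 0.13, and the 2 WT pre-treatment libraries lie apart at 0.07 and -0.12.

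Calls among other cell cycle genes at 72 h are given by list. Of all genes tested, 20.1% were called in KO (11.6% higher, 8.47% lower) and 18.3% in WT (9.26% higher, 9.04% lower). Of 36 G1/S and replication genes tested, 15 were called higher and 1 lower in KO, and 12 higher and 2 lower in WT. Their medians were 0.18 and 0.13. E2F1, a transcription factor that starts S phase, stood at 41.2 ± 1.01 CPM with Aza (n = 2) against 25.3 ± 4.73 CPM with DMSO (n = 3) in KO, and at 43.2 ± 8.63 CPM with Aza against 24.7 ± 3.52 CPM with DMSO in WT (n = 2 each). Its log2 changes were 0.84 and 0.80 (adjusted p = 2.43e-06 and 2.37e-06). In KO, CDT1 and CDC6, which license replication origins, rose by 0.65 and 0.57 (adjusted p = 6.67e-07 and 9.65e-06).

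Of 69 further G2/M genes tested, 8 were called higher and 5 lower in KO, and 1 higher and 9 lower in WT, with medians of 0.01 and -0.08. The share called was below that of all genes in both genotypes (20.1% in KO, 18.3% in WT). Of 9 genes of the G2 checkpoint, 4 rose in KO and 1 in WT. The WT gene was CDKN1A, the CDK inhibitor p21, at 8.47 ± 1.78 CPM with Aza (n = 2) against 3.78 ± 0.606 CPM with DMSO (n = 3) in KO, and at 4.29 ± 0.433 CPM with Aza against 1.55 ± 0.0711 CPM with DMSO in WT (n = 2 each). Its log2 changes were 1.28 and 1.46 (adjusted p = 0.00154 and 0.00130). Of 12 genes of the DREAM and MuvB complexes, which repress or activate mitotic promoters, 0 rose and 1 fell in KO, and 1 rose and 4 fell in WT. The riser in WT was LIN37, a MuvB subunit, at 4.60 ± 0.286 CPM with Aza against 2.98 ± 0.0859 CPM with DMSO (log2 change 0.63, adjusted p = 0.0121). Of the 16 core subunits of the anaphase-promoting complex, 0 rose and 1 fell in KO, and 1 rose and 2 fell in WT. Markers of cell identity moved at the same time. Of 7 TF-1 markers tested, 6 rose in KO and 5 in WT (medians 0.80 and 0.67), and of the markers of other cell types COL1A1, a fibroblast collagen, rose in both genotypes (2.08 and 1.75) and CDH1, an epithelial cadherin at 0.714 CPM or less, in WT, while 0 of 3 lymphocyte markers tested were called. Their part in the changes of the mitotic genes was not tested.

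By 264 h no member was called between Aza and DMSO in either genotype. The count was 0 of 42 in KO (background 0.0979%) and 0 of 42 in WT (background 0.5%), with 3 and 0 members at an unadjusted p under 0.05 in edgeR. In KO cells MYBL2 stood at 131 CPM (F4) and 137 CPM (A12) with Aza, against 134 and 156 CPM (F4, both batches) and 123 and 136 CPM (A12, both batches) with DMSO. In WT cells it stood at 139 CPM in both clones with Aza, against 127 CPM (A7) and 136 CPM (C4) with DMSO. The groups overlapped for all 42 members in KO, where 10.4% of all genes did not overlap. In WT 5 members lay above and 6 below without overlap and 31 overlapped, where 36.3% of all genes did not overlap. The log2 differences of largest size were -0.21 in KO (CDC25C) and 0.15 in WT (CDCA3), and the 95% intervals of the members reached from -0.53 to 0.49 in KO and from -0.42 to 0.68 in WT. DESeq2 also called 0 members in either genotype.

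The Aza effect at 264 h minus that at 72 h was called for 8 members in KO, all negative (background 13.1%, 5.48% higher and 7.67% lower). They were MYBL2 (-0.61), CDC25B (-0.55), CDK1 (-0.54), TTK (-0.42), UBE2C (-0.42), CENPA (-0.37), PLK4 (-0.27) and CDC20 (-0.24). In WT MYBL2 (-0.57, adjusted p = 0.000486) and CDC25B (-0.38, adjusted p = 0.00674) were called (background 6.83%, 4.0% higher and 2.83% lower). These differences use the same 72 h libraries as the Aza effects at 72 h and are not separate evidence of those. Without F4 or without A12 the KO count was 2, where 3.15% and 2.18% of all genes were called. Without A7 or without C4 the WT count was 1, where 2.91% and 2.77% of all genes were called. None of the 7 members that fell in WT at 72 h was called for this difference.

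With DMSO alone, several members were higher at 72 h than before treatment. In KO 4 of 42 rose and 0 fell (background 11.4%, 4.65% higher and 6.7% lower), and in WT 13 rose and 1 fell (background 13.6%, 6.41% higher and 7.23% lower). CDC20 led in both genotypes. It stood at 869 CPM (F4, batch 2), 610 CPM (A12) and 704 CPM (A12, batch 2) with DMSO at 72 h in KO, against 498 CPM (F4) and 477 CPM (A12) before treatment, and against 745 and 611 CPM in the batch 2 libraries with the mixed label. In WT it stood at 629 CPM (A7) and 695 CPM (C4) with DMSO at 72 h, against 438 and 504 CPM before treatment. The 72 h libraries lay above the pre-treatment libraries of the same batch and clone in every case. The log2 change was 0.45 in KO (SE 0.0657, adjusted p = 9.05e-05) and 0.49 in WT (SE 0.0620, adjusted p = 1.84e-05).

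In KO the other 3 were KIF4A (0.27), CENPF, a kinetochore protein of G2 (0.26), and KIF11 (0.24), with adjusted p values of 0.0084 to 0.0347. KIF4A stood at 81.3, 93.1 and 84.3 CPM with DMSO at 72 h against 74.4 and 78.8 CPM before treatment, with 72.1 and 75.5 CPM in the batch 2 libraries of mixed label. CENPF stood at 191, 252 and 208 CPM at 72 h against 224 and 226 CPM before treatment, with 191 and 199 CPM in the batch 2 libraries of mixed label. The groups overlapped for CENPF, whose low values at 72 h are those of batch 2, and not for KIF4A. In WT the next largest rises were HMMR, a spindle protein, at 159 CPM (A7) and 178 CPM (C4) with DMSO against 150 and 111 CPM before treatment (0.37, SE 0.104, adjusted p = 0.0240), and TTK at 160 and 152 CPM against 132 and 113 CPM (0.35, SE 0.0808, adjusted p = 0.00514). HMMR was called in 6 of 12 alternatives, with log2 changes of 0.10 to 0.68, and TTK in 9 of 12, with 0.29 to 0.42. The remaining WT rises, of 0.20 to 0.29, were in PLK4, CCNB1, KIF4A, MAD2L1, BUB1, ECT2, TOP2A, KIF11, KIF23 and BIRC5. CDC25B was the one gene that fell, at 57.7 CPM (A7) and 61.0 CPM (C4) with DMSO against 72.5 and 75.9 CPM before treatment (-0.32, SE 0.0617, adjusted p = 0.00112). With both WT pre-treatment labels exchanged, the WT count was 17, where 18.4% of all genes were called. The KO count was 13 with those labels exchanged and 13 without the WT pre-treatment libraries, where 17.0% and 18.5% of all genes were called. It was 2 without clone F4 (1.59% of all genes), 0 without A12, and 11 without A7 (15.1%) or without C4 (15.0%). The WT count was 6 without C4 (13.4%). With the library that failed quality control added, it was 2 in KO and 0 in WT.

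Between 72 h and 264 h of DMSO culture little changed. In KO PLK4 was called lower at 264 h (-0.17, SE 0.0493, adjusted p = 0.0495, background 4.68%, with 2.74% higher and 1.94% lower), at 60.9 CPM (F4), 81.8 CPM (A12), 49.5 CPM (F4, batch 2) and 68.3 CPM (A12, batch 2), against 101 CPM (A12), 50.7 CPM (F4, batch 2) and 76.1 CPM (A12, batch 2) at 72 h. The call was lost without either KO clone. In WT 0 of 42 were called by edgeR and by DESeq2 (background 0.00544%), with 10 at an unadjusted p under 0.05.

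Between genotypes, no member was called in any of the 4 conditions compared within batch 1. The counts were 0 of 42 before treatment (background 0.0543%), with Aza at 72 h (0.19%), with DMSO at 264 h (0.208%) and with Aza at 264 h (0.0488%). At an unadjusted p under 0.05 edgeR counted 0, 0, 1 and 3 members in these 4 conditions, and DESeq2 called 0. Without clone F4, with a single KO library in each condition, the counts were 2, 3, 4 and 5, where 2.66%, 3.12%, 3.69% and 6.06% of all genes were called. The member medians of KO minus WT lay between -0.07 and 0.02. The largest single difference was FOXM1 with Aza at 72 h (-0.52), at 73.7 CPM (F4) and 59.5 CPM (A12) in KO against 72.5 CPM (A7) and 118 CPM (C4) in WT. Its groups overlapped, and the WT value rested on clone C4. Intervals with 2 clones per genotype were wide, with median half-widths of 0.20 to 0.25 and bounds from -1.19 to 0.89. DMSO at 72 h was not compared, since a single KO library of batch 1 passed.

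The 2 KO clones differed from each other in many of the members. Clone A12 against clone F4, over 8 and 7 libraries, gave 17 of 42 calls, 4 higher and 13 lower (background 31.6%, 15.3% higher and 16.3% lower). The p-values measure the spread over libraries of these 2 clones. All 4 members that were higher in A12 lie on chromosome 4, and no other member of the list does. CENPE (chromosome 4, 104026963 to 104119566, hg19) had a lowest, median and highest level of 95.3, 120 and 144 CPM in A12, against 59.4, 74.1 and 87.0 CPM in F4. The clones did not overlap, and the log2 difference was 0.66 (SE 0.0485, adjusted p = 3.08e-10).

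MAD2L1, the checkpoint protein that inhibits CDC20 (120976763 to 120988229), had levels of 218, 248 and 314 CPM in A12, against 138, 181 and 213 CPM in F4 (0.54, SE 0.0365, adjusted p = 2.41e-11). PLK4 (128802016 to 128820350) had levels of 68.3, 81.1 and 112 CPM in A12, against 49.5, 60.1 and 79.3 CPM in F4 (0.49, SE 0.0336, adjusted p = 2.53e-11). CCNA2 (cyclin A2; 122737599 to 122745087) had levels of 140, 152 and 171 CPM in A12, against 110, 126 and 145 CPM in F4 (0.27, SE 0.0463, adjusted p = 9.76e-05). The clones overlapped for PLK4 and CCNA2 and not for MAD2L1. Other genes of the region differed in the same direction: the median log2 difference of the genes within 5 Mb was 0.58 around CENPE (47 of 48 positive), 0.65 around MAD2L1 (32 of 36), 0.60 around PLK4 (22 of 22) and 0.64 around CCNA2 (34 of 38). The difference of CCNA2 was smaller than its neighbour median. EXOSC9 overlaps CCNA2 on the chromosome, and whether the counting shared reads between them was not tested.

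The 13 members lower in A12 were led by ECT2, FOXM1 and KIF20A. ECT2 (chromosome 3, 172468472 to 172539264) had levels of 77.1, 99.1 and 124 CPM in A12, against 108, 142 and 159 CPM in F4 (-0.49, SE 0.0388, adjusted p = 3.05e-10). Its 30 neighbours had a median of -0.34, and 28 of them were negative. FOXM1 had levels of 51.7, 63.2 and 71.6 CPM in A12, against 69.4, 85.0 and 96.8 CPM in F4 (-0.43, SE 0.113, adjusted p = 0.0120), with a neighbour median of -0.09. KIF20A, a motor of the central spindle, had levels of 60.5, 77.3 and 110 CPM in A12, against 78.3, 91.4 and 123 CPM in F4 (-0.29, SE 0.0856, adjusted p = 0.0214). The ranges of the clones overlapped for these 3 genes, and FOXM1 and KIF20A each overlap other genes on the chromosome (RHNO1 and ITFG2, and BRD8 and CDC23), whose reads the counting could share. The other 10 members differed by -0.27 (AURKB) to -0.10 (CDC25B), and outside ECT2 no neighbour median of a member lower in A12 was larger than 0.0858 in size. Of the 17 calls, 16 were made in all 8 alternatives of this comparison. CDC25B was the exception, not called with no filter. None of these alternatives could leave out a KO clone.

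Between the WT clones, C4 against A7, 0 of 42 members were called by edgeR (background 0.0816%), with 10 at an unadjusted p under 0.05 and 1 called by DESeq2. The largest differences were in FOXM1 (0.49, SE 0.136, adjusted p = 0.207) and CDCA3 (0.41, SE 0.155, adjusted p = 0.291), both on chromosome 12. FOXM1 stood at 118, 115, 121 and 124 CPM in C4 with Aza and DMSO at 72 h and at 264 h, against 72.5, 69.1, 80.4 and 73.1 CPM in A7 in the same conditions. Before treatment the order was the opposite, at 70.2 CPM in C4 and 89.9 CPM in A7. The genes within 5 Mb had a median difference of 0.35 around FOXM1 (92 of 103 positive) and 0.32 around CDCA3 (129 of 147 positive). With both pre-treatment labels exchanged 14 members and 14.3% of all genes were called, and without those libraries 10 members and 12.6% of all genes.

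**Figure D5:**
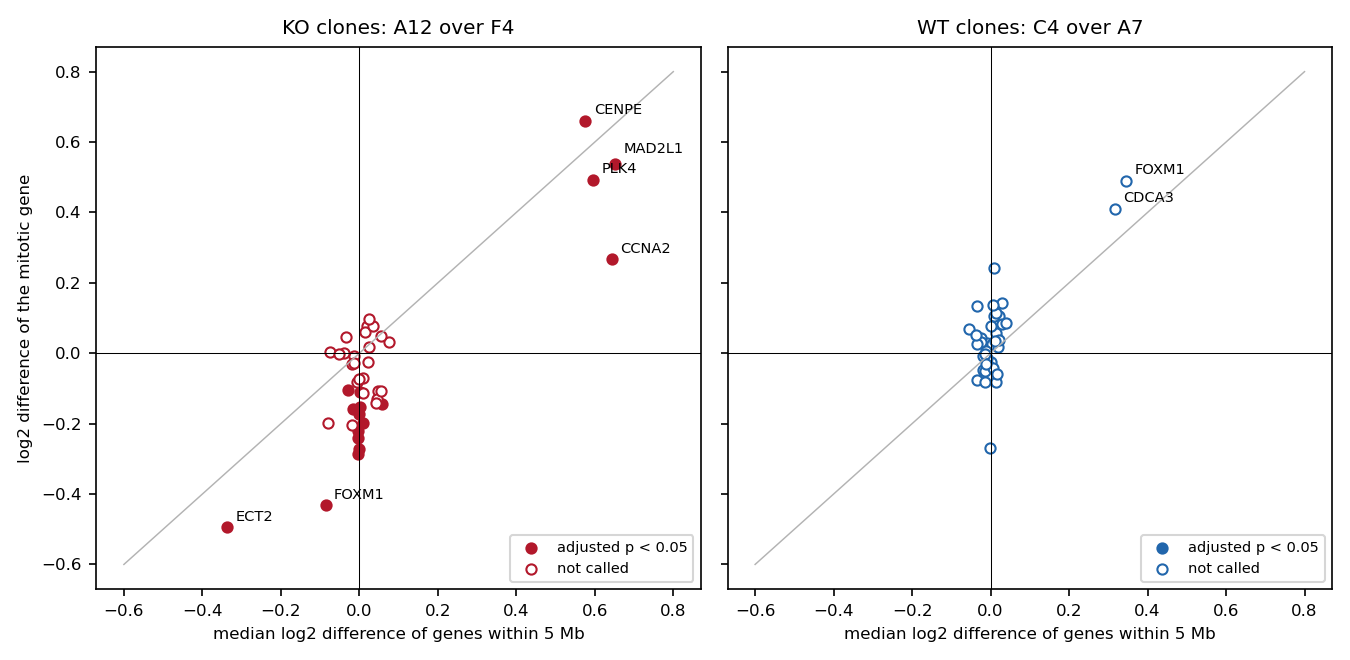
Log2 difference of each mitotic gene between clones (y axis) against the median log2 difference of the tested genes within 5 Mb (x axis), for A12 over F4 (left) and C4 over A7 (right). Filled points have an adjusted p under 0.05 and the grey line marks equality. CENPE, MAD2L1, PLK4 and CCNA2 on chromosome 4 and ECT2 on chromosome 3 differ along with their neighbours, as do FOXM1 and CDCA3 in the WT clones, while most other members lie near 0 on the x axis.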

How the data were processed

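The authors deposited raw read counts per gene for 26 libraries of TF-1 clones. Per the file headers, read pairs were assigned to GENCODE release 19 exons by featureCounts 1.6.2, with no strand option, so overlapping genes can lose reads to each other. Of the members, 7 overlap a gene with at least 10% of their counts (CCNA2, CDC25C, FOXM1, CDCA3, CENPA, KIF4A and KIF20A), and the copies of KIF4A (KIF4B) and PTTG1 (PTTG2, PTTG3P) had 185, 0 and 22 counts in all. The tools named, per the submitters' processing notes, include STAR 2.6.1d, cutadapt, DESeq2 and FastQC, and the build is hg19 (GRCh37). Per the labels, libraries were made with the TruSeq stranded mRNA kit. Transcript length comes from the deposited table.

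Levels are CPM on TMM-scaled libraries. The log2 scale adds a prior count of 2, and TPM also divides by exon length. In edgeR 4.0.16 (R 4.3.3), genes were filtered with filterByExpr (minimum count 10) and tested with the robust quasi-likelihood test. Adjusted p-values are Benjamini-Hochberg over all genes tested, and a gene is called below 0.05. All comparisons but KO against WT came from a shared fit of 25 libraries with clone, batch, the mixed batch 2 pre-treatment group and genotype-by-condition terms (18391 genes). KO was compared with WT in separate fits of 2 against 2 batch 1 libraries. In all, 18 comparisons were made. Libraries pair by clone name, which is taken to mark the same cells. The WT pre-treatment libraries do not bear this out. Same-clone deviations from group means correlated at 0.287 to 0.674 in KO, with the batch 1 pre-treatment libraries left out and the batch 2 libraries of mixed label kept. No replicate pair agreed within sampling noise (lowest chi-square per degree of freedom 12.3 over 18 pairs). The labels do not say that libraries of a clone came from separate cultures, so p-values measure the spread between these libraries. Values after ± are SDs, and counting error alone limits single values little at these depths.

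Promoter windows are those of RefSeq on GRCh38.p14, and coordinates in hg19 come from the deposited table. The tests were checked on simulated counts. The members, the lists of other genes and the alternatives were chosen with earlier results of these data known. Every member may be named. Library values are given for CCNB1, PLK1, CDC20, AURKA, FOXM1, MYBL2, MKI67, TOP2A and BUB3 and for the 3 largest calls of each direction, and genes outside the list are named if they are TET2, DNMT1 or CDKN1A or among the 4 largest calls of the lists in a comparison. CENPA, KIF11, CCNA2, COL1A1 and CDH1 were chosen after their values were seen. Alternatives were library totals, RLE factors, no filter, DESeq2 1.42.0, no clone term, batch 1 only, the failed library added, the compared groups alone, the WT pre-treatment libraries left out or exchanged, and each clone left out.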

Additional observations from a re-analysis of the deposited data

Results flagged for a closer look

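Of 42 members, 8 were called in KO for a change in the Aza effect between 72 h and 264 h, tested as an interaction in the edgeR fit, and all 8 effects were lower at 264 h. In WT the same test called 2 members, MYBL2 and CDC25B, both lower at 264 h. Both counts share the 72 h libraries with the Aza effects at 72 h. Whether the KO and WT changes differ from each other was not tested. In the 4 KO libraries with DMSO at 264 h, no member had a library that stood apart from the other 3 by Dixon's test, and the other groups held too few libraries for it. Those 4 libraries are 2 clones in 2 batches. A clone or batch difference can hide a library that stands apart, so the test says little about library quality.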

How the results depend on the processing

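Without the clone as replicate block, edgeR called 5 members in KO (13 with it) and 5 in WT (11) for Aza at 72 h, 5 (8) and 0 (2) for the change of the Aza effect, 2 (4) and 5 (14) for DMSO at 72 h against pre-treatment, and 0 (1) for DMSO at 264 h against 72 h in KO. The shares of all genes called, in that order, were 10.7% (20.1% with the block) and 9.42% (18.3%), and 4.9% (13.1%) and 2.19% (6.83%). For DMSO they were 4.15% (11.4%) and 4.64% (13.6%), and 0.614% (4.68%). Given in the same order of comparisons, the library that failed quality control moved the member counts to 5 and 2, 2 and 0, 2 and 0, and 0. The shares of all genes were then 11.8% and 5.9%, 3.22% and 1.09%, 8.69% and 1.66%, and 0.59%. That library turned CDC20 with Aza at 72 h in KO to -0.0172 (adjusted p = 0.944) and CENPF with DMSO at 72 h in KO to -0.19 (adjusted p = 0.666). It also turned AURKB with Aza at 72 h in KO to -0.07 and KIF11 with DMSO at 72 h in KO to -0.04. Without the WT pre-treatment libraries the KO counts were 22, 13, 13 and 2 (26.1%, 18.7%, 18.5% and 10.4% of all genes). The WT change of the Aza effect then had 6 (11.1% of all genes). A12 against F4 had 26, against 17 in the main fit (37.7% of all genes), and C4 against A7 had 10, against 0 (12.6%). With those labels exchanged, Aza at 72 h in KO had 20 (24.9% of all genes), DMSO at 72 h in KO had 13 (17.0%) and DMSO at 264 h in KO had 2 (9.04%). The WT change of the Aza effect had 4 (9.89%) and C4 against A7 had 14 (14.3%). Batch 1 alone gave 3 for the change of the Aza effect in KO (4.59% of all genes) and 0 for DMSO at 264 h in KO (0.0%). The compared groups alone gave 7 for Aza at 72 h in KO (14.7%). With no filter, DMSO at 72 h in KO had 11 (5.91% of all genes), and DMSO at 264 h had 0 in KO (3.45%) and 1 in WT (0.149%). C4 against A7 had 5 (2.46%). KO against WT had 2 before treatment (2.45%), 2 with Aza at 72 h (2.77%), 2 with DMSO at 264 h (3.52%) and 5 with Aza at 264 h (3.99%). DESeq2 called 1 for C4 against A7 (1.25% of all genes). The cause of these shifts was not tested.

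Leaving out 1 clone at a time gave 3 (without A12) to 16 calls for Aza at 72 h in KO and 3 (without A7) to 10 in WT, 5 and 6 without F4 and C4, 2 (without F4 or A12) to 7 and 1 to 2 for the change of the Aza effect, 0 (without A12) to 11 and 6 (without C4) to 20 for DMSO at 72 h, and 0 to 2 for DMSO at 264 h in KO. KO against WT gave 0 to 2 before treatment, 0 to 3 with Aza at 72 h, 0 to 4 with DMSO at 264 h and 0 to 5 with Aza at 264 h, with the highest counts without F4, where the lone KO library is assumed to vary like the others. Over the genes whose library values are given by rule, a part of the called genes, 358 recomputed values kept direction and call, 96 lost the call and 2 (CDC20 and CENPF) turned. These values include the KO clone comparison, where 16 of 17 calls were made in every alternative. For Aza at 72 h it was 1 of 13 calls in KO and 2 of 11 in WT. It was 1 of 8 and 0 of 2 for the change of the Aza effect. For DMSO at 72 h it was 0 of 4 and 0 of 14, and for DMSO at 264 h in KO 0 of 1. The share of all genes called moved with many of these settings, for Aza at 72 h in KO from 2.19% without A12 to 26.1% without the WT pre-treatment libraries.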
